A study of Mus musculus with 13 samples.

Results

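The enzymes that turn cholesterol into bile acids, together with the bile acid sensor FXR and its target SHP, were followed in mouse liver during TAA treatment. The set holds 10 genes, named Cyp7a1, Cyp7b1, Cyp8b1, Cyp27a1, Hsd3b7, Akr1d1, Slc27a5, Baat, Nr1h4 (FXR) and Nr0b2 (SHP), out of 16593 gene symbols on the array. The members were chosen with earlier results of these data known. Probes were assigned to them by gene symbol alone, and 13 probes carried one of these symbols. Single-colour Illumina MouseRef-8 bead arrays, which report the brightness of beads that carry a gene-specific probe, measured RNA of total liver from 13 samples. All samples came from female C57BL/6 mice. The Naive group (n = 3) was untreated, and the other groups received TAA for 1 week (n = 3), 4 weeks (n = 4) or 6 weeks (n = 3). TAA is the usual short form of thioacetamide, a compound that damages hepatocytes and is used to produce liver fibrosis in rodents. Dose, route and age are not in the labels, and nothing there says that replicates are separate animals, so p-values measure only the spread between these samples.

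Bile acids are made in hepatocytes by 2 routes. The classic route starts with Cyp7a1, the rate-limiting enzyme, and the alternative route starts with Cyp27a1 and continues with Cyp7b1. Cyp8b1 directs the products towards cholic acid, Hsd3b7 and Akr1d1 modify the sterol ring, and Slc27a5 and Baat join the finished acid to coenzyme A and then to an amino acid. FXR, a nuclear receptor that binds bile acids, raises SHP in liver and the hormone Fgf15 in mouse intestine, and both are known to repress Cyp7a1 and Cyp8b1.

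RefSeq promoter sequences (build GRCm38.p6) were matched for 6 of the 10 members, and there was no entry for Cyp7a1, Cyp7b1, Baat and Slc27a5. The 250 bases before the gene start are printed 5′ to 3′ on the gene's strand for 3 enzymes with an entry and for the receptor. Each of these 3 enzymes was lower on every TAA array than on every naive array, though the change of Cyp8b1 at 6 weeks missed the threshold. The change of the receptor missed the threshold too. The windows lie at chr9:121916306-121916555 (minus strand) for Cyp8b1, chr1:74713285-74713534 (plus strand) for Cyp27a1, chr7:127800359-127800608 (plus strand) for Hsd3b7 and chr10:89506659-89506908 (minus strand) for Nr1h4. Capitals mark matches to the motifs searched on both strands.
Cyp8b1: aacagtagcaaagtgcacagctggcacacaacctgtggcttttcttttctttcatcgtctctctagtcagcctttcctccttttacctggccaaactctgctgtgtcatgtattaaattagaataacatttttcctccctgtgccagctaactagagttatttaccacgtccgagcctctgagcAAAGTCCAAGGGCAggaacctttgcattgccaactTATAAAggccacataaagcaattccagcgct
Cyp27a1: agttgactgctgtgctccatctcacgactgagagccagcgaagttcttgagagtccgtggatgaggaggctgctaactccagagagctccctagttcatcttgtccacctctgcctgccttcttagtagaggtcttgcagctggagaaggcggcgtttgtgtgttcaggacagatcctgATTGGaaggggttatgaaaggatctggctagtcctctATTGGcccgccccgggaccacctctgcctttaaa
Hsd3b7: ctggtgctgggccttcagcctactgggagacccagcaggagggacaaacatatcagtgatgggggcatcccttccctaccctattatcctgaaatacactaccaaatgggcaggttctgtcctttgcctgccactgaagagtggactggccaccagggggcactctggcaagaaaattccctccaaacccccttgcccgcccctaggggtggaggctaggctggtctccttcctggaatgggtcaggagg
Nr1h4: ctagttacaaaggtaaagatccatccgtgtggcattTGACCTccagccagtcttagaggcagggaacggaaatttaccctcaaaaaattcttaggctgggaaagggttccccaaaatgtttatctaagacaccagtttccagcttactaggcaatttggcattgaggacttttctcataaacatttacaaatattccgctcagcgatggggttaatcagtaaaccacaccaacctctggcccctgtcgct
The motifs were the nuclear receptor half-site AGGTCA, the LRH-1 type site CAAGGNCA, the HNF4 type site AAAGTCCA, the TATA box TATAAA and CCAAT. Cyp8b1 held AAAGTCCA, starting 66 bases before the gene start, which overlapped CAAGGGCA, starting at 60, by 2 bases, and TATAAA at 31. Cyp27a1 held CCAAT on the other strand, written ATTGG, at 71 and at 34 bases before the start. Nr1h4 held AGGTCA on the other strand, written TGACCT, 214 bases before the start, and none of the 5 motifs was found in the Hsd3b7 window. Among 32536 promoter windows of the same length, AAAGTCCA was found in 1.02%, CAAGGNCA in 5.54%, TATAAA in 12.3%, AGGTCA in 14% and CCAAT in 33.8%. A match describes the letters of the window and shows no binding.

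Naive arrays had a mean intensity of 472 to 587, 1-week arrays one of 177 to 479, 4-week arrays 456 to 611 and 6-week arrays 195 to 273. Log2 intensities correlated across genes, which are not independent replicates, with r from 0.953 to 0.99 between arrays of a group and from 0.904 to 0.98 between groups. Arrays B and C of the 1-week group and all 6-week arrays stood above the other arrays by at least 1 log2 unit on 7 genes, among them Erich5 and Zxda. Genes lower on this array set were not searched for. None of the 7 is a bile acid gene. Many of the comparisons that use these arrays are therefore also given with that array set as a term of the model. Where that value is not printed, the result may still depend on the set. The set effect in that fit rests on the 1-week arrays alone, because naive and 4-week arrays are all outside the set and 6-week arrays are all inside it.

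Of 9 hepatocyte markers past the detection filter (among them Apoa1, Ttr and Hnf4a), 1 was higher and 0 lower at 1 week, and 0 were higher and 2 lower at 4 weeks and at 6 weeks. Their summed normalized intensity, over 11 annotated markers, was 96790 to 124300 in naive arrays, 102700 to 117300 at 1 week, 101100 to 107900 at 4 weeks and 106900 to 112700 at 6 weeks. This sum was mostly that of Apoa1, Ttr, Trf and Ahsg, at normalized log2 intensities of 13.9 to 15.1, and says little of the dimmer markers. Among those, Tdo2 was the 1 called higher at 1 week, with a mean log2 intensity of 7.64 against 6.53 in naive arrays. Serpina1e changed by -3.09 ± 0.64 at 4 weeks (limma adjusted p = 0.00245). Pck1 changed by -1.63 ± 0.38 at 4 weeks (adjusted p = 0.00561) and -1.24 ± 0.41 at 6 weeks (adjusted p = 0.0261). Pck1 was detected on only 1 of 4 and 1 of 3 arrays at these times, so its later readings lie near background. The bright marker Trf was also called lower at 6 weeks (-0.65 ± 0.20, limma adjusted p = 0.0207; 0.394 with the array set as a term). The probe of Alb read 5.25 to 6.72. The markers Fgb and Tat were not detected on any array. The summed intensity of 6 cholangiocyte markers was 181 to 194 in naive arrays, 183 to 370 at 1 week, 289 to 615 at 4 weeks and 581 to 689 at 6 weeks. Much of this rise was that of Cldn4, with a mean log2 intensity of 4.47 in naive arrays and 6.62, 7.43 and 8.47 at 1, 4 and 6 weeks. Of the 6 markers, 1, 1 and 4 were called higher at 1, 4 and 6 weeks and 0 lower. The sum of 8 stellate cell and myofibroblast markers, with Lrat undetected, ran from 334 to 405, 390 to 587, 636 to 1884 and 866 to 1503 in the same order of groups. Acta2 was the brightest of these at 4 and 6 weeks, with means of 9.02 and 9.13. Of 7 tested, 2, 3 and 6 were called higher at 1, 4 and 6 weeks and 0 lower. The sum of 6 macrophage markers, each detected on some arrays, ran from 2794 to 2991, 3218 to 5143, 2801 to 4053 and 1519 to 3301. Of these 6, 0, 1 and 0 were called higher and 1, 1 and 2 lower at 1, 4 and 6 weeks. The part of these cell types in the changes described next was not tested.

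Most of the enzymes were lower after TAA. A call means a limma p-value under 0.05 after Benjamini-Hochberg adjustment across the 8027 genes tested. Of the 8 members that passed the detection filter, 5 were lower and 0 higher at 1 week, 6 lower and 0 higher at 4 weeks, and 5 lower and 0 higher at 6 weeks. Over all genes tested, 25.6% were called at 1 week (12.3% lower), 28.2% at 4 weeks (12.9% lower) and 38.8% at 6 weeks (16.4% lower). Because members were chosen with earlier results of these data known, setting them beside these shares is no test of the set. The median change of the 8 members was -1.09, -1.23 and -0.89 on the log2 scale, against 0.02, 0.03 and 0.09 over all genes. Of the genes called, 48%, 45.9% and 42.3% were lower at 1, 4 and 6 weeks, and with arrays scaled to an equal 75th percentile these shares were 59.1%, 62.3% and 55.4%. That scaling moved the median of all genes at 4 weeks from 0.03 to -0.10 and at 6 weeks from 0.09 to -0.02, and the members called numbered 6 and 7 there, all of them lower. With the array set as a term, 4 members were called lower at 1 week, 6 at 4 weeks and 3 at 6 weeks. In these bulk samples, fewer hepatocytes and less RNA per hepatocyte cannot be told apart.

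**Figure D1:**
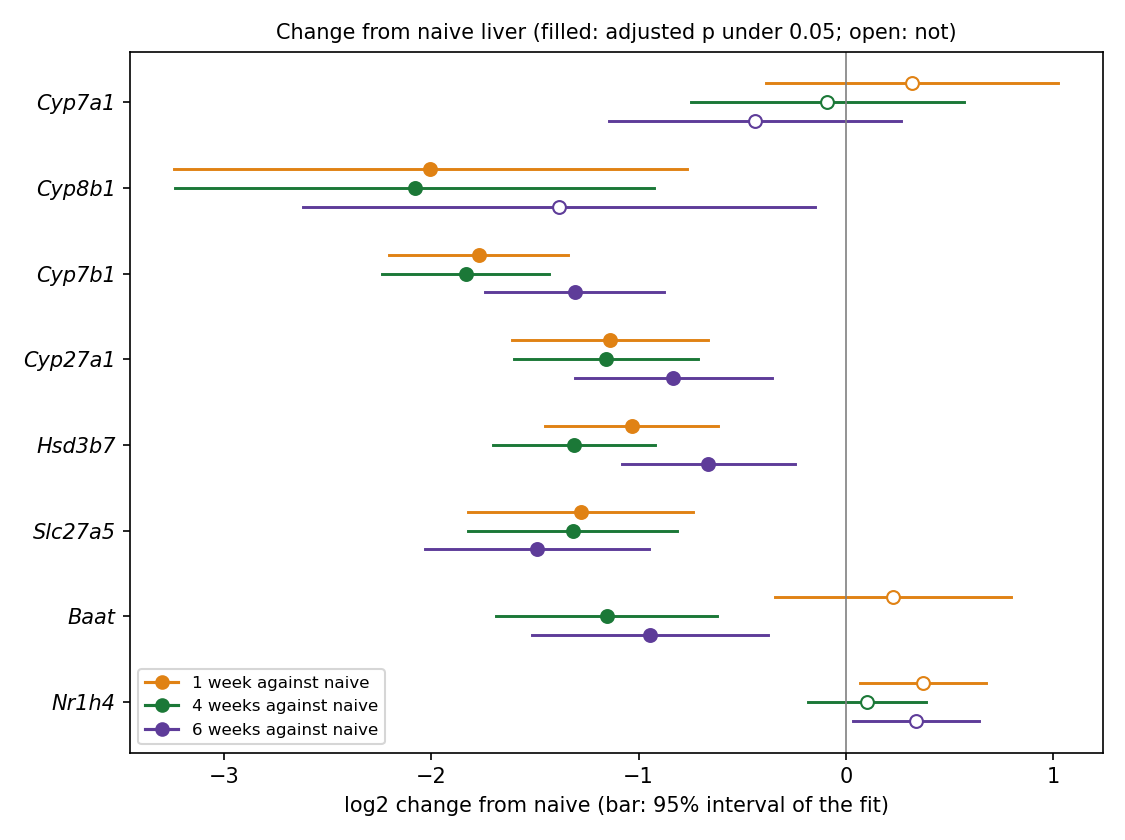
Log2 change from naive of the 8 tested members (points, with 95% intervals of the fit as bars) at 1, 4 and 6 weeks of TAA, and filled symbols mark called changes. Cyp8b1 and Cyp7b1 reach -2.08 and -1.83 at 4 weeks, while Cyp7a1 and Nr1h4 have no filled symbol.

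Cyp7a1, which adds the first hydroxyl group of the classic route, did not pass the test at any time. Its normalized log2 intensities were 11.42, 11.51 and 11.07 on naive arrays A, B and C, and 12.03, 10.84 and 12.10 at 1 week. On 4-week arrays A to D the values were 11.11, 11.46, 10.76 and 11.65, and on 6-week arrays 11.19, 10.36 and 11.14. The groups overlapped, and the 1-week group was the most spread, with array B below all naive arrays and A and C above them. The change from naive was 0.32 ± 0.33 (SE, n = 3 against 3) at 1 week (limma adjusted p = 0.515; 95% interval -0.39 to 1.03), -0.09 ± 0.31 at 4 weeks (adjusted p = 0.861; -0.75 to 0.57) and -0.44 ± 0.33 at 6 weeks (adjusted p = 0.314; -1.14 to 0.27). These intervals leave room for changes larger than those measured. Under 75th percentile scaling the change was -0.18 at 1 week (adjusted p = 0.686) and -1.14 at 6 weeks (adjusted p = 0.00802), and with the array set as a term it was 0.13 at 6 weeks (adjusted p = 0.911). Cyp7a1 at 6 weeks therefore passed or missed the threshold according to the scaling. The difference between 6 weeks and 1 week was -0.76 ± 0.33 (adjusted p = 0.159), and it was called without 1-week array B (-1.17, adjusted p = 0.0158).

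Cyp8b1, the sterol hydroxylase that leads to cholic acid, had the largest mean fall among the members at 1 and 4 weeks. Its normalized log2 intensities were 12.39, 12.10 and 12.57 on naive arrays and 10.31, 9.81 and 10.93 at 1 week. On 4-week arrays A to D the values were 10.25, 11.78, 8.40 and 10.67, and on 6-week arrays 11.36, 10.56 and 10.99. Every TAA array was below every naive array. The 4-week arrays spanned 3.37 log2 units (SD 1.41, n = 4), against 0.47 in the naive group (SD 0.24, n = 3), with array C lowest and array B highest. The change was -2.0 ± 0.58 at 1 week, a level 4.01-fold lower (adjusted p = 0.0206), and -2.08 ± 0.54 at 4 weeks, 4.23-fold lower (adjusted p = 0.0105). At 6 weeks it was -1.38 ± 0.58, which missed the threshold (adjusted p = 0.0712; 95% interval -2.62 to -0.15). The adjusted p at 6 weeks was 0.00844 without 4-week array C and 0.0305 without 4-week array B, which enter through the shared estimate of spread, and 0.00158 with only the naive and 6-week arrays fitted. Under 75th percentile scaling the 6-week change was -2.18 (adjusted p = 0.00370). The 1-week call was lost without naive array A (adjusted p = 0.0536), naive array C (0.0660), 1-week array A (0.0507) or 1-week array B (0.0620). Adding the array set gave -2.05 at 1 week (adjusted p = 0.127) and -1.45 at 6 weeks (adjusted p = 0.408).

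Cyp27a1, the mitochondrial sterol hydroxylase of the alternative route, fell at all 3 times. Normalized log2 intensities were 12.39, 12.53 and 12.91 on naive arrays and 11.11, 11.40 and 11.89 at 1 week. On 4-week arrays A to D the values were 11.22, 11.50, 11.49 and 11.60, and on 6-week arrays 11.99, 11.47 and 11.87. No TAA array reached the lowest naive array. The change was -1.14 ± 0.22 at 1 week (2.20-fold lower, adjusted p = 0.00234), -1.15 ± 0.21 at 4 weeks (2.23-fold lower, adjusted p = 9.67e-04) and -0.83 ± 0.22 at 6 weeks (1.78-fold lower, adjusted p = 0.00881). With the array set as a term it was -1.50 at 1 week (adjusted p = 0.00674) and -1.37 at 6 weeks (adjusted p = 0.0312). The other 2 probes of Cyp27a1, tested in a fit of all probes, gave changes of -1.14 and -1.19 at 1 week, -0.93 and -1.06 at 4 weeks and -1.11 and -0.95 at 6 weeks, each of them called.

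Cyp7b1, which acts on the product of Cyp27a1, also fell at all 3 times. Normalized log2 intensities were 9.76, 9.42 and 9.43 on naive arrays and 7.96, 7.46 and 7.88 at 1 week. At 4 weeks, arrays A to D had values of 7.73, 7.95, 7.35 and 7.78, and the 6-week arrays 8.29, 8.0 and 8.40. All 10 TAA arrays were at least 1 log2 unit below the lowest naive array. The change was -1.77 ± 0.20 at 1 week (3.41-fold lower, adjusted p = 8.04e-05), -1.83 ± 0.19 at 4 weeks (3.57-fold lower, adjusted p = 1.62e-05) and -1.31 ± 0.20 at 6 weeks (2.48-fold lower, adjusted p = 2.13e-04). The array set as a term left the 1-week change called (-1.58, adjusted p = 0.00459) and the 6-week change not called (-1.02, adjusted p = 0.0768). The 6-week arrays lay above all 1-week and 4-week arrays, but neither difference passed the test (0.46 ± 0.20, adjusted p = 0.161, and 0.53 ± 0.19, adjusted p = 0.116).

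The hydroxylases of the 2 routes were compared within arrays as the change of Cyp7b1 minus that of Cyp7a1, a pair chosen after the values had been seen. The difference was -2.09 log2 units at 1 week (exact two-sided permutation p = 0.1), -1.75 at 4 weeks (p = 0.0286, exact) and -0.87 at 6 weeks (p = 0.1, exact). These are the smallest p-values that 3 arrays against 3, or 4 against 3, can give. Adjusted over 8 such comparisons they were 0.133, 0.114 and 0.133. No adjusted value could reach 0.05 in this design, so these p-values say nothing for or against a difference.

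**Figure D2:**
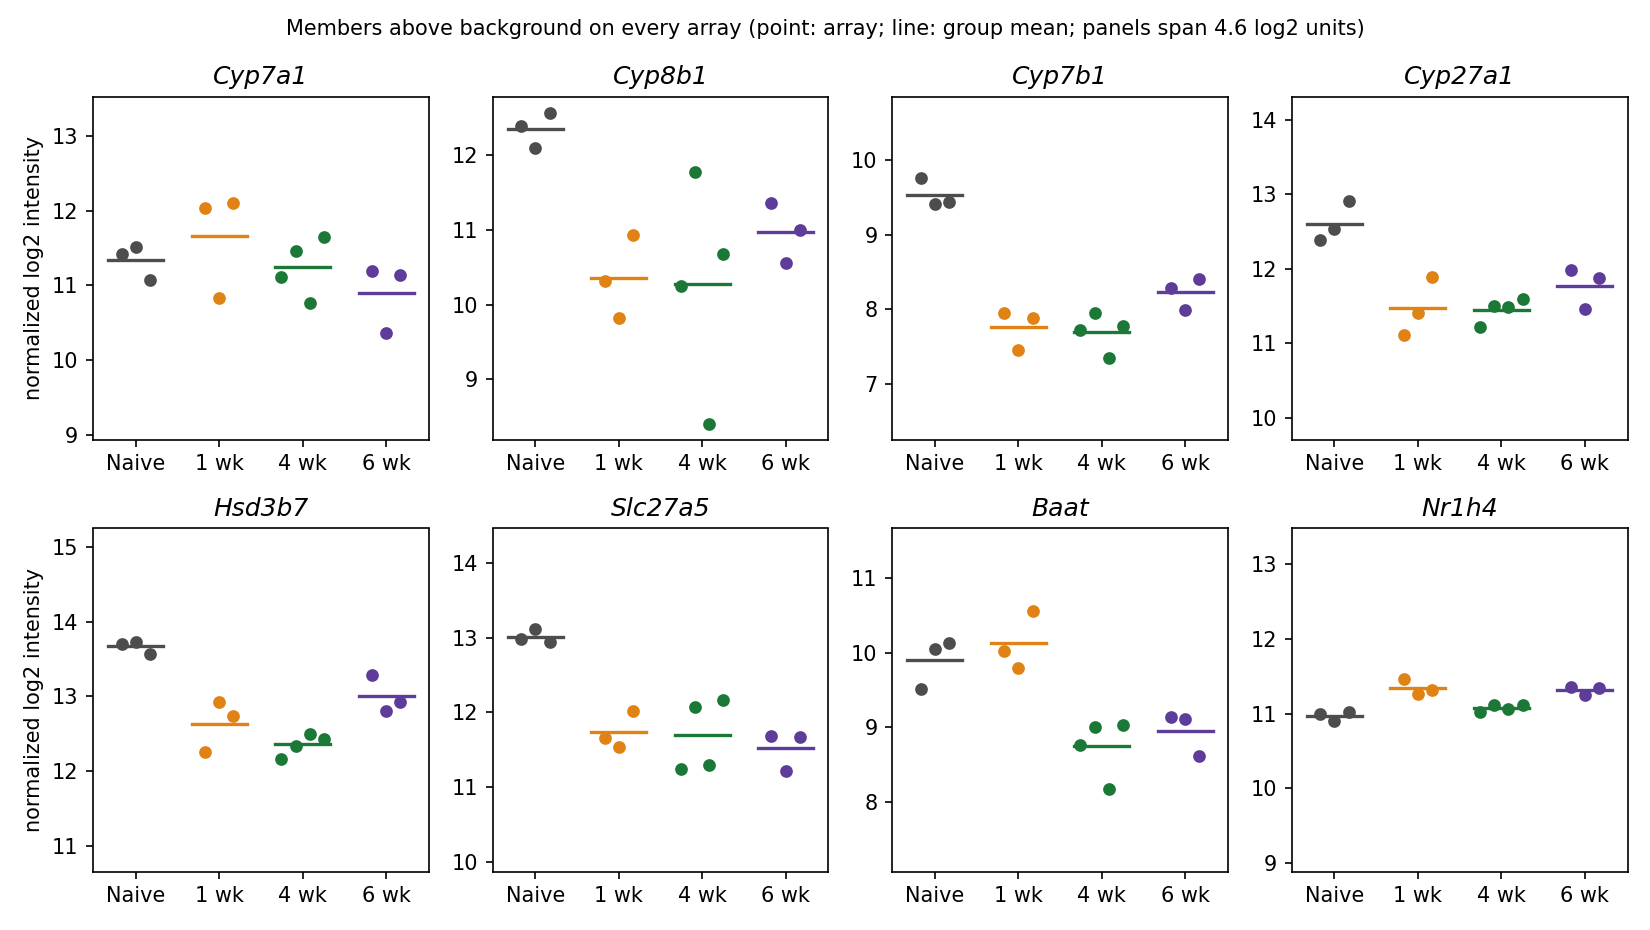
Normalized log2 intensity of the 8 tested members on each array (points, in array letter order within a group) with the group mean as a line. Cyp7b1, Cyp27a1, Slc27a5 and Hsd3b7 have every TAA array below every naive array, and the 4-week arrays of Cyp8b1 span 3.37 log2 units.

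Hsd3b7, the dehydrogenase that acts on sterols of both routes, fell at all 3 times. Normalized log2 intensities were 13.70, 13.73 and 13.57 on naive arrays and 12.25, 12.92 and 12.74 at 1 week. At 4 weeks, arrays A to D had values of 12.16, 12.34, 12.49 and 12.42, and the 6-week arrays 13.29, 12.81 and 12.92. No TAA array overlapped the naive group, whose spread was narrow (SD 0.086, n = 3). The change was -1.03 ± 0.20 at 1 week (2.05-fold lower, adjusted p = 0.00187), -1.31 ± 0.18 at 4 weeks (2.49-fold lower, adjusted p = 1.39e-04) and -0.66 ± 0.20 at 6 weeks (1.58-fold lower, adjusted p = 0.0152). The 6-week call was lost without 6-week array B (adjusted p = 0.0613) and without 6-week array C (adjusted p = 0.0513). Adding the array set gave -1.42 at 1 week (adjusted p = 0.00366) and -1.24 at 6 weeks (adjusted p = 0.0220).

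Hsd3b7 at 6 weeks was above 4 weeks on every array, by 0.65 ± 0.18 (adjusted p = 0.0529), just outside the threshold. That difference was called under 12 of 26 alternative settings, and with the array set as a term it was 0.07 (adjusted p = 0.951). The second probe of Hsd3b7 gave larger falls, of -1.62, -1.67 and -1.20 at 1, 4 and 6 weeks (each called), and a 6-week minus 4-week difference of 0.47 that was not called (adjusted p = 0.108). Both probes placed the 6-week group between the naive and the 4-week group.

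**Figure D3:**
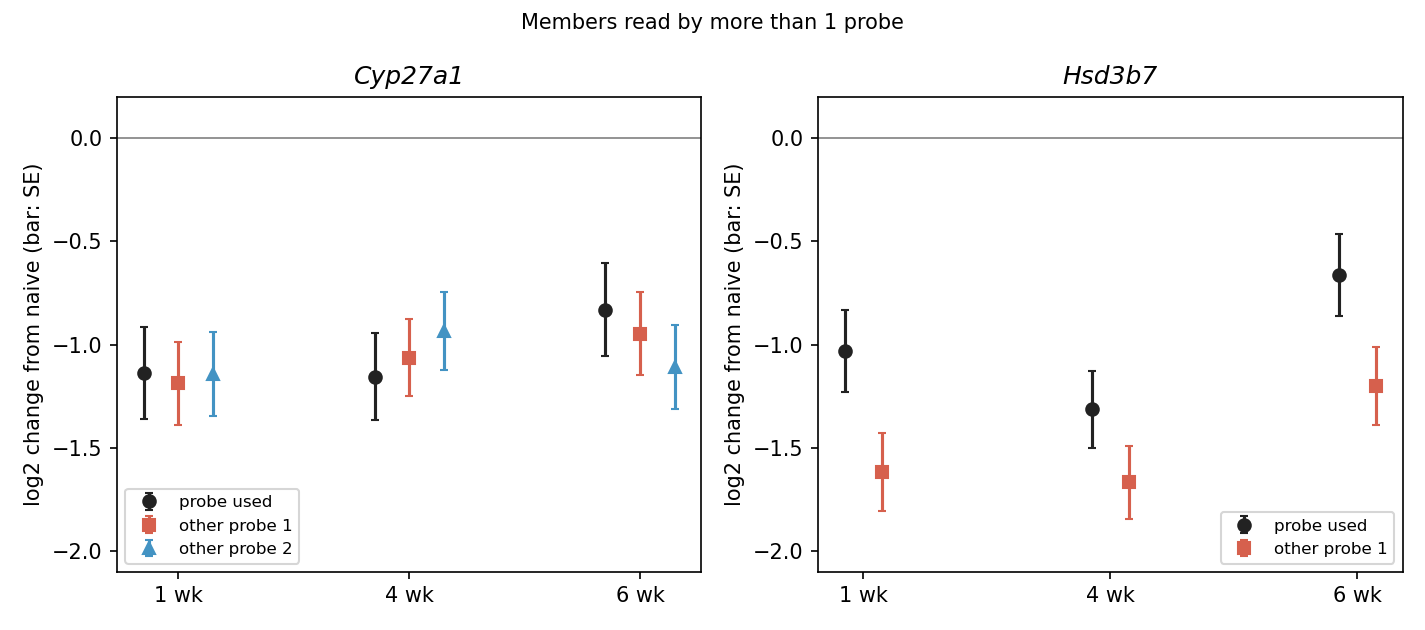
Log2 change from naive, with standard errors, for each of the 3 probes of Cyp27a1 and the 2 probes of Hsd3b7 at 1, 4 and 6 weeks. All probes lie below 0 at every time, and the second Hsd3b7 probe is lower than the first, at -1.62 against -1.03 at 1 week.

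Akr1d1, the reductase that sets the bent shape of the bile acid ring system, was at background. Its probe was detected (detection p-value under 0.01) on 1 of 13 arrays, 1-week array B, with raw intensities from 81.7 to 142 over all arrays. It had neither a level nor a fold change here.

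Of the conjugation enzymes, Slc27a5 was lower at all 3 times and Baat at 4 and 6 weeks. Slc27a5, the bile acid coenzyme A ligase, had normalized log2 intensities of 12.99, 13.11 and 12.94 on naive arrays and 11.65, 11.53 and 12.01 at 1 week. At 4 weeks they were 11.24, 12.07, 11.30 and 12.16, and at 6 weeks 11.69, 11.21 and 11.67. Every TAA array was lower than every naive array. The change was -1.28 ± 0.25 at 1 week (2.43-fold lower, adjusted p = 0.00256), -1.32 ± 0.24 at 4 weeks (2.49-fold lower, adjusted p = 9.67e-04) and -1.49 ± 0.25 at 6 weeks (2.81-fold lower, adjusted p = 4.36e-04). The array set as a term kept these calls, with -1.36 at 1 week (adjusted p = 0.0271) and -1.61 at 6 weeks (adjusted p = 0.0424).

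Baat, which joins the activated bile acid to taurine or glycine, overlapped its naive range at 1 week and was lower later. Normalized log2 intensities were 9.51, 10.05 and 10.13 on naive arrays and 10.02, 9.80 and 10.55 at 1 week, and these groups overlapped. On 4-week arrays A to D the values were 8.77, 9.01, 8.17 and 9.02, and on 6-week arrays 9.13, 9.11 and 8.61, below all naive and all 1-week arrays. The change was 0.23 ± 0.27 at 1 week (adjusted p = 0.575; 95% interval -0.34 to 0.80), -1.15 ± 0.25 at 4 weeks (2.22-fold lower, adjusted p = 0.00342) and -0.95 ± 0.27 at 6 weeks (1.93-fold lower, adjusted p = 0.0120). Under 75th percentile scaling the 1-week change turned to -0.19 (adjusted p = 0.601). The 6-week call was lost without naive array C (adjusted p = 0.0523), without 6-week array C (adjusted p = 0.0580) and with the array set as a term (-1.10, adjusted p = 0.159).

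Between TAA times, Baat was the only member called in the model of all 13 arrays without further terms. Members called numbered 1 of 8 at 4 weeks against 1 week, where 8.81% of all genes were called, 1 of 8 at 6 weeks against 1 week, where 9.18% were, and 0 of 8 at 6 weeks against 4 weeks, where 5.31% were. For the last comparison, 2 members had an unadjusted p under 0.05, and limma called 1 member under 12 of 26 alternative settings. Baat fell by 1.38 ± 0.25 from 1 to 4 weeks (adjusted p = 0.00683) and was lower by 1.17 ± 0.27 at 6 weeks than at 1 week (log2 change -1.17, adjusted p = 0.0155). Adding the array set gave -1.28 (limma adjusted p = 0.0895) and -1.22 (adjusted p = 0.0374). The difference between 6 weeks and 1 week was not called without 6-week array C (-1.01, adjusted p = 0.0765). It was also not called with array weights (-1.18, adjusted p = 0.0719) or with only the 2 groups fitted (-1.17, adjusted p = 0.0537). Leaving out 1-week arrays B and C, so that 1 array stood for that group, gave -1.28 at 4 weeks and -1.07 at 6 weeks.

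The change of Baat minus that of Slc27a5, also a pair chosen after the values had been seen, was 1.51 at 1 week (exact permutation p = 0.1, the smallest possible), 0.17 at 4 weeks (p = 0.6, exact) and 0.54 at 6 weeks (p = 0.2, exact) against naive. It was -1.34 from 1 to 4 weeks (exact p = 0.0286, the smallest possible) and -0.96 from 1 to 6 weeks (exact p = 0.1, the smallest possible). Adjusted over the 8 comparisons, p-values of this pair ran from 0.114 to 0.6, and here too none could reach 0.05.

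Nr1h4, which encodes FXR, did not pass the test at any time. Its normalized log2 intensities were 11, 10.90 and 11.03 on naive arrays and 11.46, 11.26 and 11.31 at 1 week. On 4-week arrays A to D the values were 11.02, 11.12, 11.06 and 11.11, and on 6-week arrays 11.35, 11.24 and 11.34. The 1-week and 6-week arrays lay above all naive arrays, and the 4-week arrays overlapped them. The change was 0.37 ± 0.14 at 1 week (adjusted p = 0.0695; 95% interval 0.07 to 0.67), 0.10 ± 0.13 at 4 weeks (adjusted p = 0.608; -0.18 to 0.39) and 0.34 ± 0.14 at 6 weeks (adjusted p = 0.0733; 0.03 to 0.64). In the authors' deposited value table the changes at 1 and 6 weeks were 0.34 and 0.31 and were called (adjusted p = 0.00479 and 0.00489). Under 75th percentile scaling the 3 changes turned to -0.13, -0.29 and -0.37, none of them called. Adding the array set gave 0.49 at 1 week (adjusted p = 0.102) and 0.51 at 6 weeks (adjusted p = 0.179).

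Nr0b2, which encodes SHP, was not detected on any of the 13 arrays. Its lowest detection p-value was 0.328 and its raw intensities ran from 81.9 to 131. No level and no fold change of SHP could be given, and this says only that its probe did not rise above the negative controls.

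**Figure D4:**
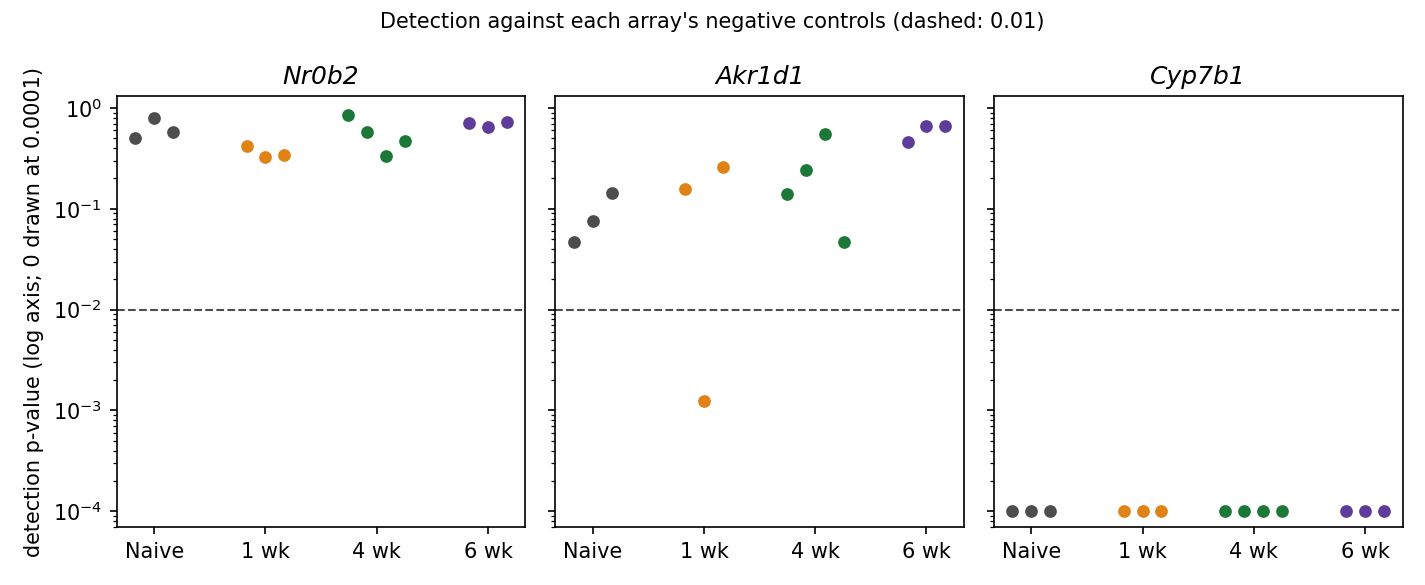
Detection p-value of Nr0b2, Akr1d1 and Cyp7b1 on each array by group (log axis, with a value of 0 drawn at the foot and the threshold of 0.01 dashed). Nr0b2 lies above the threshold on all 13 arrays and Akr1d1 on all but 1, while Cyp7b1 lies at the foot on all 13.

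For the remaining steps of the alternative route and of the side chain, of 11 listed genes, 8 were tested, and 2, 3 and 2 were lower at 1, 4 and 6 weeks with 0 higher, where 12.3%, 12.9% and 16.4% of all genes were called lower and 25.6%, 28.2% and 38.8% in either direction. Their median change was -0.32, -0.10 and -0.27. Those called numbered 0, 3 and 0 with the array set as a term, 1 at 1 week without naive array A, 1 at 4 weeks without naive array B, and 5, 5 and 6 under 75th percentile scaling. Ch25h, Cyp46a1 and Amacr were not detected. Cyp39a1, an oxysterol hydroxylase, changed by -1.41 ± 0.32 at 1 week (adjusted p = 0.00606) and -1.01 ± 0.30 at 4 weeks (adjusted p = 0.0214). It was detected on 3 of 3 naive arrays, on 1 of 3 and 3 of 4 at 1 and 4 weeks, and on 0 of 3 at 6 weeks, where it was at least 2.16-fold lower (adjusted p = 4.99e-04). This bound and those that follow set the naive mean against, on each array, the lowest detected signal or the probe's own where higher. An adjusted p beside a bound tests the fitted change between group means, not the bound. The calls of Cyp39a1 at 1 and 6 weeks were lost with the array set as a term (adjusted p = 0.169 and 0.195).

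Cyp2c70, which makes muricholic acids in mice, was lower at 4 weeks (-1.0 ± 0.18, adjusted p = 0.00113) and at 6 weeks (-0.92 ± 0.20, adjusted p = 0.00220; 0.235 with the array set as a term), and its change at 1 week was -0.38 ± 0.20 (adjusted p = 0.175). Akr1c6, a hydroxysteroid dehydrogenase, was detected on 4 of 13 arrays, among them 2 of 3 naive arrays and 0 of 4 at 4 weeks. It was called lower at 4 weeks (limma adjusted p = 0.00969). Its bound of 1.31-fold is loose, because the naive mean includes a reading that was not detected.

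Among FXR targets and bile acid carriers, 10 of 14 listed genes were tested, and 4, 5 and 6 were lower and 2, 1 and 1 higher at 1, 4 and 6 weeks, so that 6, 6 and 7 were called where 25.6%, 28.2% and 38.8% of all genes were. With the array set as a term 3, 6 and 4 were called, and without naive array B 3 at 1 week. The median change was -0.27, -1.02 and -1.33. Slco1b2, an uptake carrier of the sinusoidal membrane, changed by -1.35 ± 0.39 (adjusted p = 0.0207), -1.45 ± 0.37 (adjusted p = 0.00878) and -2.69 ± 0.39 (adjusted p = 1.31e-04). Its change was -0.35 at 1 week (adjusted p = 0.622) and -1.18 at 6 weeks (adjusted p = 0.167) with the array set as a term, so these calls were lost.

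Slco1a4, a related uptake carrier, changed by -0.16 ± 0.30 at 1 week (adjusted p = 0.739) and fell at 4 and 6 weeks, with log2 changes of -1.47 ± 0.28 (adjusted p = 0.00139) and -2.21 ± 0.30 (adjusted p = 7.96e-05; 0.0743 with the array set as a term). At 6 weeks it was detected on 2 of 3 arrays, with a mean log2 intensity of 5.30, so this reading lies near background. Slc10a1, the sodium-dependent bile acid uptake carrier, was detected on 3 of 3 naive arrays and 1 of 3 1-week arrays, where it changed by -1.20 ± 0.21 (adjusted p = 0.00119). It was detected on no later array and was at least 2.05-fold lower at 4 weeks (adjusted p = 9.44e-05) and at least 1.82-fold lower at 6 weeks (adjusted p = 6.20e-05). Its mean log2 intensities were 6.09 in naive arrays, 4.58 at 4 weeks and 4.47 at 6 weeks. The bounds depend on the lowest detected signal of the arrays, so they do not rank the 2 times.

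Abcg8, one chain of the sterol exporter, changed by -0.39 ± 0.32 at 1 week (adjusted p = 0.394), -1.73 ± 0.30 at 4 weeks (adjusted p = 7.07e-04) and -1.39 ± 0.32 at 6 weeks (adjusted p = 0.00335). Abcc2, an exporter of conjugates into bile, rose by 1.05 ± 0.27 (adjusted p = 0.0106), 1.65 ± 0.25 (adjusted p = 2.63e-04) and 1.32 ± 0.27 (adjusted p = 0.00145). Its rise was called at 4 weeks only with the array set as a term (adjusted p = 0.0828 at 1 week and 0.0903 at 6 weeks). Abcb11, the bile salt export pump and a known FXR target, named after its values had been seen, fell at all 3 times, with log2 changes of -1.35 ± 0.24 (adjusted p = 0.00142), -1.38 ± 0.23 (adjusted p = 5.36e-04) and -2.48 ± 0.24 (adjusted p = 6.61e-06). Calls at 1 and 6 weeks were kept with the array set as a term for Abcb11 (adjusted p = 0.0259 and 0.00715) and Slc10a1 (adjusted p = 0.00403 and 0.00350), as was that of Abcg8 at 6 weeks (adjusted p = 0.0239). Fgf15, the intestinal hormone, was detected on 1 of 13 arrays, and Slc51a and Slco1a1 on 0.

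**Figure D5:**
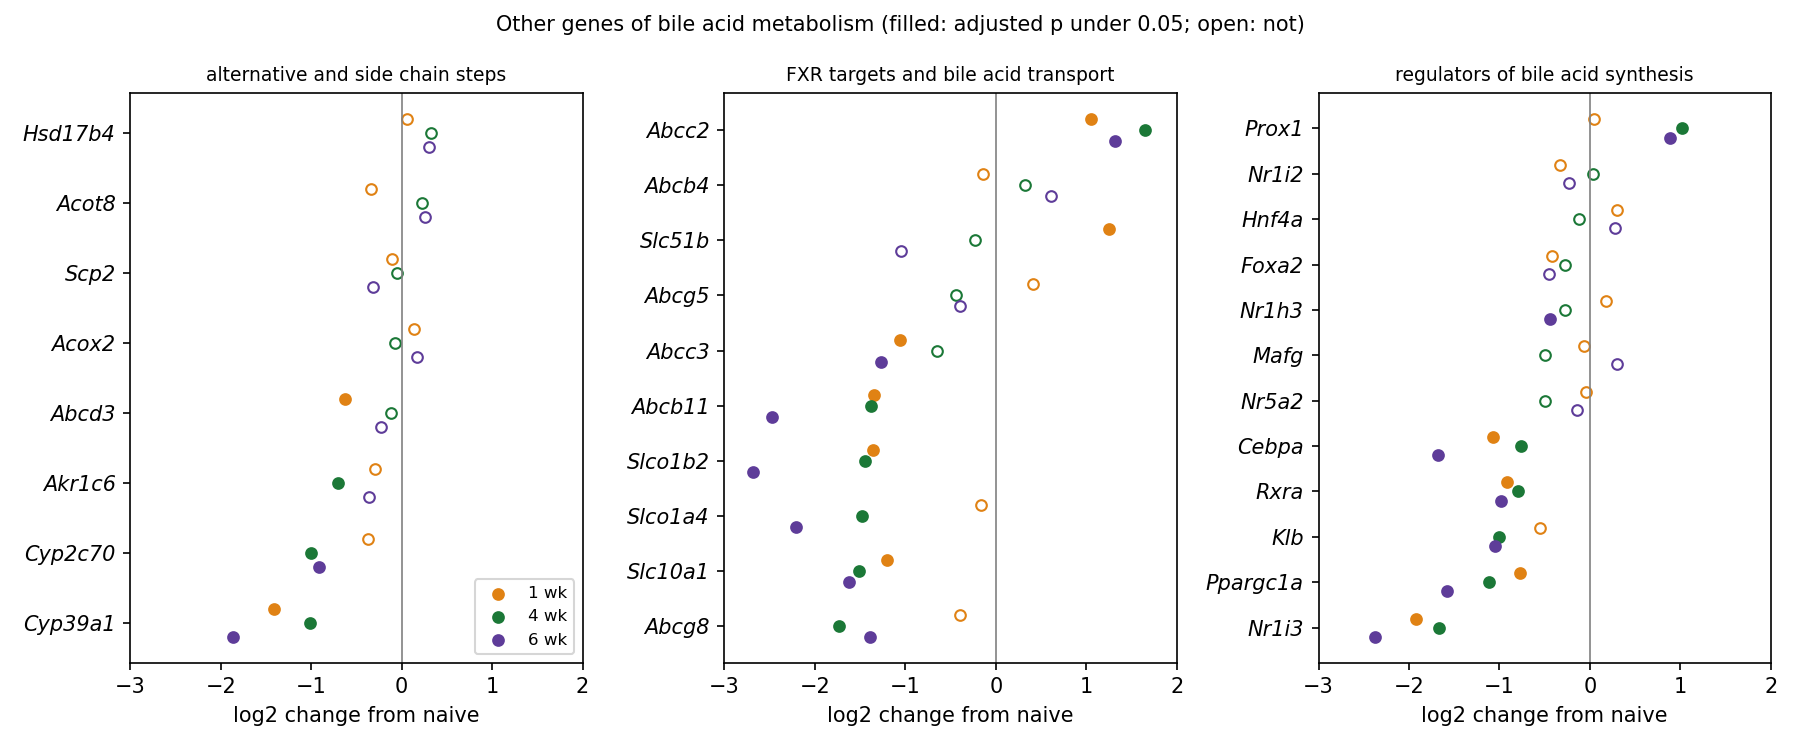
Log2 change from naive of every tested gene of the 3 pathway lists at 1, 4 and 6 weeks, with filled points for called changes and open points for the others. At 4 weeks the filled points of Abcc2 and Prox1 lie above 0, at 1.65 and 1.02, and the other filled points lie below 0.

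Of 15 listed regulators of bile acid synthesis, 12 were tested, and 4, 5 and 6 were lower and 0, 1 and 1 higher at 1, 4 and 6 weeks, with medians of -0.37, -0.49 and -0.45. These 4, 6 and 7 called stand beside 25.6%, 28.2% and 38.8% of all genes, and with the array set as a term they numbered 2, 7 and 2. Rxra, the partner with which FXR binds DNA, fell by 0.92 ± 0.19 at 1 week (log2 change -0.92, adjusted p = 0.00295), by 0.80 ± 0.17 at 4 weeks (-0.80, adjusted p = 0.00362) and by 0.98 ± 0.19 at 6 weeks (-0.98, adjusted p = 9.72e-04). It was called with the array set as a term too (adjusted p = 0.00734 at 1 week and 0.0140 at 6 weeks). Nr1i3, the xenobiotic receptor CAR, had the largest fall of the named regulators, with -1.92 ± 0.24 (adjusted p = 1.43e-04), -1.67 ± 0.22 (adjusted p = 1.07e-04) and -2.38 ± 0.24 (adjusted p = 8.62e-06), and these calls held with the array set as a term (adjusted p = 0.00801 at 1 week and 0.0144 at 6 weeks).

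Klb, the co-receptor for Fgf15, changed by -0.55 ± 0.25 at 1 week (adjusted p = 0.117) and fell at 4 and 6 weeks, with log2 changes of -1.01 ± 0.23 (adjusted p = 0.00515) and -1.05 ± 0.25 (adjusted p = 0.00422; 0.0584 with the array set as a term). Its receptor partner Fgfr4 was not detected. Ppargc1a, a coactivator, was lower by -0.77 ± 0.23 (adjusted p = 0.0216), -1.11 ± 0.21 (adjusted p = 0.00136) and at least 1.99-fold at 6 weeks (adjusted p = 1.11e-04), where 0 of 3 arrays detected it. It was detected on 2 of 3 arrays at 1 week and 2 of 4 at 4 weeks, so these readings also lie near background. Its calls at 1 and 6 weeks were lost with the array set as a term (adjusted p = 0.238 and 0.0540). Prox1, known as a repressor of Cyp7a1, changed by 0.04 ± 0.23 at 1 week (adjusted p = 0.914) and rose at 4 and 6 weeks, by 1.02 ± 0.22 (adjusted p = 0.00288) and 0.88 ± 0.23 (adjusted p = 0.00770; 0.649 with the array set as a term).

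Hnf4a and Nr5a2 (LRH-1), whose motif types were searched in the promoters, were named after their values had been seen. Hnf4a changed by 0.30 ± 0.26, -0.12 ± 0.24 and 0.28 ± 0.26 at 1, 4 and 6 weeks (adjusted p = 0.430, 0.752 and 0.412). Nr5a2 changed by -0.04 ± 0.22, -0.50 ± 0.21 and -0.14 ± 0.22 (adjusted p = 0.908, 0.0875 and 0.643). Neither was called in the model without further terms, and with the array set as a term only Nr5a2 at 4 weeks was (limma adjusted p = 0.0431). The other alternative settings were not read for these genes singly.

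The patterns most like those of the hydroxylases were looked up among all tested genes as Pearson r of normalized log2 intensity over the 13 arrays, which share groups and normalization. For Cyp7a1 they were Akr1c14 (r = 0.843), Igfbp5 (0.825) and Wnt5b (0.808), and r of the deviations from group means was 0.810, 0.943 and 0.761. For Cyp7b1 they were Ank (r = 0.941), Fzd8 (0.938) and Mfsd4b1 (0.936), with 0.653, 0.505 and 0.432 within groups. For Cyp8b1 they were Lims2 (r = 0.866), F10 (0.865) and Ank (0.860), with 0.774, 0.882 and 0.806 within groups. For all genes named with Cyp7b1, r was lower once the group means were removed. It was also lower for Akr1c14 and Wnt5b with Cyp7a1 and for Lims2 and Ank with Cyp8b1, while Igfbp5 and F10 went the other way. These genes were picked as the highest r among all tested genes on the same arrays, so their r values are no test of likeness. No likeness was computed for Nr0b2, which did not pass the detection filter.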

How the data were processed

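Total liver RNA of 13 samples was measured on single-colour bead arrays. The deposited raw table holds, per the file headers, the mean intensity of each probe, not normalized, and a detection p-value against negative controls. The submitters' processing notes name GenomeStudio. No version of it is given in the sources used here. In addition, the authors' deposited value table holds log2 values with column medians from -0.00176 to 0.00134. Its normalization and centring are not stated. Its differences from naive followed those of the raw table (r = 0.998 across probes, slope 0.905), and it served as an alternative.

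Probes were named from the annotation supplied, which gave a symbol for 23978 of 25697 probes and none for 1719. Intensities were corrected and quantile-normalized with neqc (limma 3.58.1, R 4.3.3, offset 16), which compresses changes of dim probes. Probes detected at p under 0.01 on at least 3 arrays were kept, and the brightest probe of each gene was tested, giving 8027 genes. One limma model with a mean per group was fitted to all 13 arrays, with two-sided tests and Benjamini-Hochberg adjustment. The scripts were tested on simulated data. For arrays, their number limits the precision. Raw columns carry a letter and no replicate number. Nothing in the labels says that equal replicate numbers share an animal, so no block was used in the main model. Deviations from group means in the value table had r from -0.339 to 0.237 over 18 same-numbered pairs of samples. Over 45 other-numbered pairs r ran from -0.188 to 0.332. No 2 arrays held identical values.

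All members are named. Of each pathway list, up to 5 called genes with the largest change at 4 weeks are named, and the 3 tested genes most like Cyp7a1, Cyp7b1 and Cyp8b1. Members and lists were chosen with earlier results of these data known. Normalization, filter, probe choice, array set, array weights, source table and left-out arrays were varied.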

Additional observations from a re-analysis of the deposited data

Results flagged for a closer look

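Baat, which was called at 4 and 6 weeks but not at 1 week, changed differently from naive between TAA times. The difference of its changes was -1.38 on the log2 scale between 4 weeks and 1 week (limma adjusted p = 0.00683, lower on 4 of 4 arrays) and -1.17 between 6 weeks and 1 week (adjusted p = 0.0155, lower on 3 of 3 arrays). Neither call held under every alternative setting.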

How the results depend on the processing

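Each comparison was recomputed under 26 alternatives, 13 of which left out 1 array. Over 1248 member changes, 1158 kept direction and call, 20 lost the call, 32 gained it, 38 turned sign without a call on either side, and 0 turned sign with a call. Members called at 6 weeks against naive (5) numbered 3 with the array set as a term. At 4 weeks against 1 week (1) they numbered 0 with the array set, 0 without 1-week arrays B and C, and 2 in the authors' value table. At 6 weeks against 1 week (1) they numbered 0 with array weights and 0 with only the 2 groups fitted. At 6 weeks against 4 weeks (0) limma called 1 without background correction, with offset 50, with probes detected on all arrays, with all probes tested, without 1-week arrays B and C, with array weights, with only the 2 groups fitted and in the value table, and 2 members had an unadjusted p under 0.05. Leaving out 1 array gave 4 to 5 members at 1 week, 6 to 6 at 4 weeks, 3 to 6 at 6 weeks, 1 to 1, 0 to 2 and 0 to 1 between TAA times. The 3 at 6 weeks came without 6-week array C, and at 6 against 1 week the 0 came without that array and the 2 without 1-week array B. The replicate block in the value table gave 6, 6, 6, 1, 1 and 0 members, against 6, 6, 6, 2, 1 and 1 without it. The cause of these shifts was not tested.

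Counts over all genes moved more. With the array set they were 1148 at 1 week, 934 at 6 weeks, and 134, 425 and 0 between TAA times (4 against 1, 6 against 1 and 6 against 4 weeks). With only the 2 groups fitted they were 1099 at 1 week, and 373, 169 and 762 between times. Array weights gave 211, 209 and 868. Testing all 11212 probes past the filter gave 1241 at 4 against 1 week and 1154 at 6 against 4 weeks, which are counts of probes, not of genes. The replicate block gave 279, 402 and 102, and 75th percentile scaling 237 at 6 against 1 and 818 at 6 against 4 weeks. Leaving out 1 array gave 1356 to 2243, 1582 to 2553, 2448 to 3434, 367 to 1064, 260 to 1394 and 103 to 645. The lower share of called genes between times was 50.1%, 42.5% and 58.2%, and 62.3%, 55.3% and 42.8% under 75th percentile scaling. Cyp8b1 at 1 week lost its call under 8 of the 26, and Nr1h4 gained one at 1 and at 6 weeks under 6 each. Signal over background limits Akr1d1 and Nr0b2, which were undetected on bright naive and 4-week arrays too.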

Other observations

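Slc51b, a chain of the basolateral bile acid exporter and a known FXR target, and Cebpa, a hepatocyte transcription factor, were named after their values had been seen. Slc51b was higher than naive at 1 week (1.26 ± 0.42, limma adjusted p = 0.0403; 0.0835 with the array set as a term), and its changes at 4 and 6 weeks were -0.23 ± 0.39 (adjusted p = 0.702) and -1.05 ± 0.42 (adjusted p = 0.0598). From 1 to 6 weeks it fell by 2.31 ± 0.42 (log2 change -2.31, adjusted p = 0.00619), and this call held with the array set as a term (adjusted p = 0.0258). At 6 weeks Slc51b was detected on 2 of 3 arrays, with a mean log2 intensity of 5.47, so this reading lies near background. Abcb11 was lower at 6 weeks than at 1 week (-1.13 ± 0.24, adjusted p = 0.0120) and than at 4 weeks (-1.10 ± 0.23, adjusted p = 0.0136; 0.457 with the array set as a term). Cebpa fell from naive at all 3 times, with log2 changes of -1.07 ± 0.25 (adjusted p = 0.00647), -0.76 ± 0.23 (adjusted p = 0.0242) and -1.68 ± 0.25 (adjusted p = 1.49e-04), and with the array set as a term only the 4-week change was called (adjusted p = 0.191 at 1 week and 0.110 at 6 weeks).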
